A study of Mus musculus with 6 samples.

Results

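The miR-29 family in mouse liver comprises the 7 mature miRNAs with a miR-29a, miR-29b or miR-29c name in the quantification table, out of 1907 distinct miRNAs listed there. They were picked by name, with earlier results of these data known, and all 7 names were found. Small RNA was sequenced from the liver of 3 female and 3 male C57BL/6N mice aged 12 weeks, all in normal health and all on a chow diet. The submitters describe the animals as littermates, but do not say which libraries come from 1 litter. Neither sex received a treatment or carried an altered allele, so the comparison is female against male healthy liver, in a study of acute liver injury that depends on sex. Library totals ran from 3285249 to 16444674 counts. The hepatocyte miRNA miR-122-5p took 32.5 to 35.5% of the counts of each library, the largest share of any miRNA.

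A miRNA is cut from a hairpin precursor as a short duplex, and usually 1 arm, the guide, is loaded into Argonaute while the other is degraded. The guide finds messenger RNAs by its seed, bases 2 to 8 from the 5′ end, and lowers their translation and stability. In the miR-29 family the 3p arm is the guide, and its best known targets are messenger RNAs of the extracellular matrix, collagens above all. The family is known in liver as a restraint on hepatic stellate cells, the cells that lay down scar matrix, and transforming growth factor beta lowers it.

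The 3 guides are shown to bring out their common seed, in capitals, and the single base that separates miR-29a-3p from miR-29c-3p. Sequences are those of RefSeq (GRCm38.p6), in which all 7 members had an entry.
miR-29a-3p: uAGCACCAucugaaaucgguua
miR-29c-3p: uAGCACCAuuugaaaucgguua
miR-29b-3p: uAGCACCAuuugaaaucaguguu
No other mature mouse miRNA of the RefSeq table carries the seed AGCACCA. The first 9 bases are identical in all 3. Counted from the 5′ end, miR-29a-3p and miR-29c-3p differ by C10U alone. Between miR-29b-3p and miR-29c-3p the differences are A18G, G21U and U22A, and miR-29b-3p has 23 bases against 22. The assignment of reads that match more than 1 of them is not described, so the split between miR-29a-3p and miR-29c-3p rests on 1 base.

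The opposite, 5p arms are shown because, unlike the guides, each has a seed of its own, again in capitals.
miR-29a-5p: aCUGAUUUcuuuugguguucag
miR-29c-5p: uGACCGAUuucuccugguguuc
miR-29b-1-5p: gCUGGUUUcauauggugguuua
miR-29b-2-5p: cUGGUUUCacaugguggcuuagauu
The longest run found in all 4 is uggug, of 5 bases. One other mature miRNA, miR-6338, shares the seed of miR-29b-2-5p.

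These arms come from 4 hairpins in 2 clusters. Mir29a (31062660 to 31062747) and Mir29b-1 (31063023 to 31063093) lie on the minus strand of chromosome 6, with 275 bases between them. Mir29b-2 (195037040 to 195037120) and Mir29c (195037547 to 195037634) lie on the plus strand of chromosome 1, 426 bases apart. The chromosome 1 pair sits within an exon of the non-coding transcript A330023F24Rik, and an exon of Cd46, a complement regulator, covers the same bases on the opposite strand. No annotated gene other than the miRNA itself overlaps Mir29a, while Mir29b-1 overlaps the 3′ edge of the exon of the long non-coding RNA Gm27019. Both miR-29b hairpins give the same miR-29b-3p, at 31063025 to 31063047 on chromosome 6 and at 195037091 to 195037113 on chromosome 1. The table lists it in 2 identical rows, both at the chromosome 6 position, and the row was counted once. The table does not split its counts between the loci, and the 5p arms are the members that tell the miR-29b loci apart.

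As a picture of what the seed reads, the 7-base complement TGGTGCT was searched on the sense strand of the longest annotated 3′ UTR of each protein-coding gene (GENCODE M21). Of 10 matrix genes named as targets, 8 held at least 1 match, 15 matches in all. Across all 20950 genes searched, 13.1% held one. The 10 genes were chosen as known targets, so their share is not an independent test of the seed match. The median UTR of these 10 genes had 1136.5 bases against 955 for all genes, and length alone changes how often the 7 letters occur. Matches in Col1a1 and Col3a1, the chains of the main fibrillar collagens of scar tissue, and in Eln, which encodes elastin, are printed with the match in capitals.
Col1a1, chr11:94952523-94952552, plus strand: gtgggaaggaatttcTGGTGCTatagaagc
Col3a1, chr1:45348967-45348996, plus strand: ttcaaaatgtctcaaTGGTGCTataataaa
Eln, chr5:134703729-134703758, minus strand: cgacctcatcaacgtTGGTGCTactgcttg
In Col1a2 and Sparc, the other 2 genes, these letters do not occur in the UTR searched. Messenger RNA was not measured here, so the matches describe sequence only.

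In both sexes, miR-29a-3p was by far the leading member, followed by miR-29c-3p and miR-29b-3p, and the 5p arms were far lower. Each library held 113 to 564 counts of miR-29c-5p and 5 to 85 counts of each other 5p arm. Levels are given as CPM, counts per 1000000 after scaling the library totals with TMM factors. A library's reads cover whole mature miRNAs of 22 to 25 bases, so no length scaling was applied.

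The guide miR-29a-3p stood at 35149, 35801 and 32538 CPM in female replicates 1 to 3 and at 33248, 34193 and 35301 CPM in male replicates 1 to 3. The highest and lowest values both came from females, and the sexes overlapped. It held rank 7 to 9 among all miRNAs of each library. The second guide, miR-29c-3p, reached 11651, 13407 and 11511 CPM in females and 12845, 11434 and 12383 CPM in males, with overlapping groups and a rank of 15 to 17. The third, miR-29b-3p, had 3239, 3936 and 3670 CPM in females against 4426, 2966 and 4137 CPM in males. Male libraries were at both ends of that range, replicate 1 at the top and replicate 2 at the bottom.

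**Figure D1:**
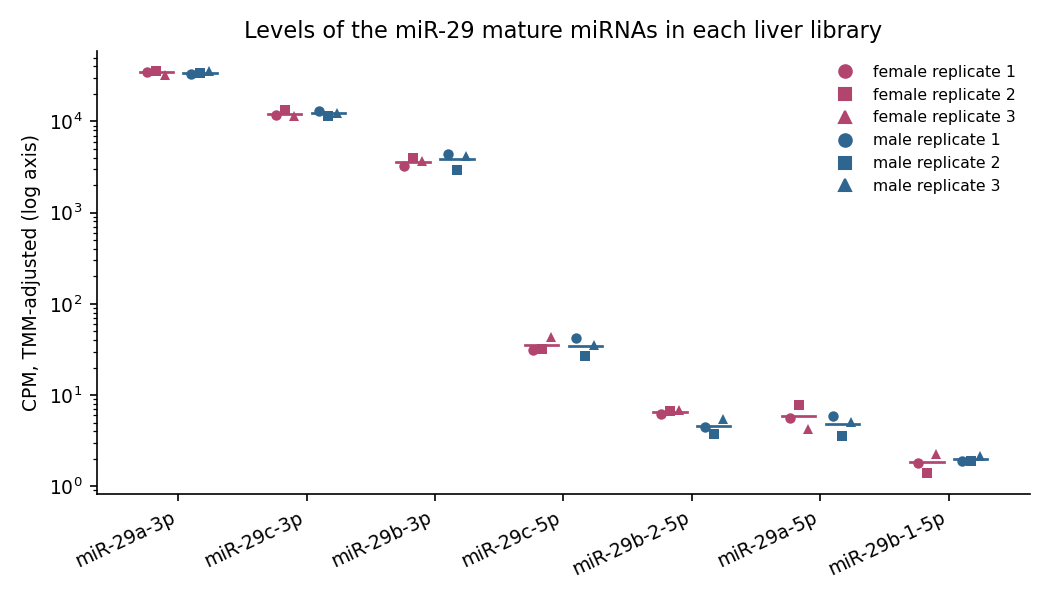
CPM (TMM-adjusted, log axis) of each miR-29 mature miRNA in the 3 female and 3 male libraries; points are libraries and bars are means. The 3 guides lie near 34372, 12205 and 3729 CPM on average, the 4 opposite arms at or below 43.0 CPM, and only miR-29b-2-5p has female points that all lie above the male ones.

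Of the opposite arms, miR-29c-5p was the most abundant, at 31.4, 32.4 and 43.0 CPM in females and 42.1, 26.7 and 35.8 CPM in males. For miR-29b-2-5p the values were 6.27, 6.64 and 6.84 CPM in females and 4.43, 3.78 and 5.40 CPM in males. This was the single member whose female libraries all lay above its male libraries. Levels of miR-29a-5p, the partner of the most abundant guide, were 5.61, 7.75 and 4.28 CPM in females and 5.86, 3.54 and 5.02 CPM in males. The lowest member, miR-29b-1-5p, had 11, 5 and 8 counts in females and 12, 8 and 34 counts in males, which is 1.38 to 2.28 CPM. It did not reach the count filter of the test. The sexes overlapped for both of these arms.

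The order of the 7 levels held in each library except at 1 step. The count of miR-29a-3p was 2.82 times that of miR-29c-3p on average, within 2.59 to 3.02 across the 6 libraries, and miR-29c-3p was 3.30 times miR-29b-3p (2.90 to 3.86). Below the guides came a gap: miR-29b-3p was 106 times miR-29c-5p (85.0 to 121). The arm miR-29c-5p was in turn 6.30 times miR-29b-2-5p (4.80 to 9.35). At the bottom, miR-29a-5p was 2.66 times miR-29b-1-5p (1.82 to 5.18). Each of these 5 steps had the same direction in 6 of 6 libraries. The neighbours were set by sorting on the means of these same libraries, so the steps are a description and carry no test. The remaining neighbours, miR-29b-2-5p and miR-29a-5p, did not differ beyond their spread: the ratio ran from 0.76 to 1.58, with miR-29b-2-5p higher in 4 of 6 libraries.

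Together the 3 guides made up 5.26, 5.48 and 5.10% of all counts in females and 4.97, 4.46 and 4.96% in males. After TMM scaling the guides summed to 47720 to 53145 CPM in females and 48593 to 51821 CPM in males, with overlap. Their mean share was 5.04%, where the miRNAs with the seed of let-7 took 14.3%, those with the seed of miR-21a-5p 7.87% and those with the seed of miR-16-5p 5.51%. These seed shares cover the 1623 of 1907 miRNAs matched to a RefSeq sequence, at least 60.4% of the counts of each library. The most abundant miRNA, miR-122-5p, was not among them, so the shares give no rank among all seed families. Within the family, miR-29a-3p supplied 65.8 to 70.4% of the guide counts, miR-29c-3p 23.3 to 25.4% and miR-29b-3p 6.10 to 8.76%. The 4 opposite arms together supplied 0.0738 to 0.118% of the family's counts.

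No member passed the test for a difference between the sexes. Of the 6 members with enough counts to be tested, 0 had an adjusted p under 0.05 in edgeR's quasi-likelihood test with Benjamini-Hochberg adjustment, and 0 had an unadjusted p under 0.05. DESeq2 and limma-voom likewise gave 0 and 0. Among all 370 tested miRNAs 25, or 6.76%, passed, 3.24% higher and 3.51% lower in females, and 18.1% had an unadjusted p under 0.05. When 1 library was omitted, that count of 25 ran from 9 to 32: it was 9 for female replicate 2, 10 for female replicate 3, 12 for male replicate 3, 21 for male replicate 1, 26 for male replicate 2 and 32 for female replicate 1. The members had a median log2 fold change, female over male, of 0.02, against -0.01 over all tested miRNAs.

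Given the TMM factors, the data bound the difference closely for the abundant guides. For miR-29a-3p the estimated log2 fold change came to 0.01 (SE 0.07, adjusted p = 0.963, edgeR), with a 95% interval from -0.15 to 0.17. In linear terms that interval reaches from 0.902 to 1.12 times the male level. For miR-29c-3p the estimate was -0.0037 (SE 0.09, adjusted p = 0.995, edgeR), an interval of 0.868 to 1.15 times. The interval of miR-29b-3p was wider, 0.754 to 1.17 times, around a log2 fold change of -0.09 (SE 0.15, adjusted p = 0.797, edgeR). Each interval takes the TMM factors as fixed. On that scale it holds the differences that the data of 3 animals of each sex do not exclude. The p-values do not show that the levels are equal.

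**Figure D2:**
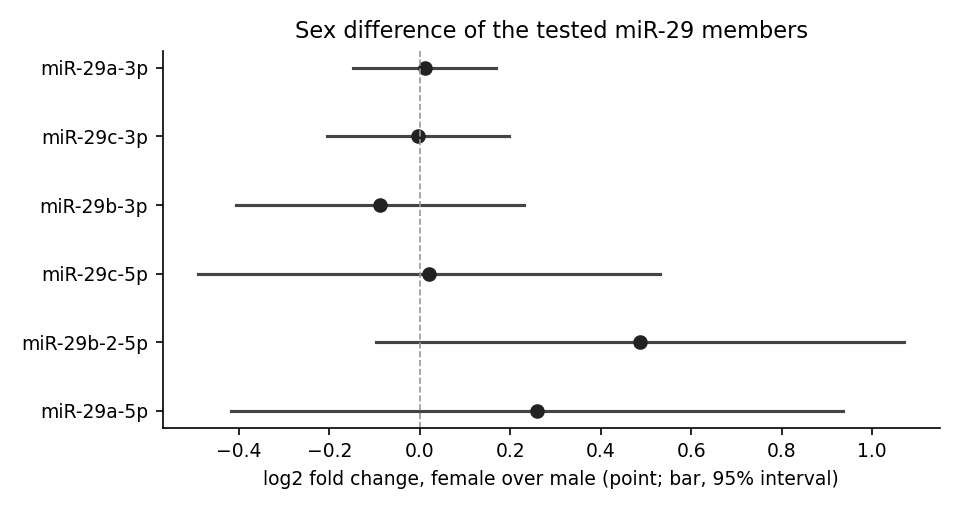
Log2 fold change, female over male, of the 6 tested miR-29 members; points are edgeR estimates and bars their 95% intervals. All 6 intervals include 0, and they widen from miR-29a-3p (-0.15 to 0.17) to the arms with few counts.

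The signs of the guide estimates changed with the scaling of the libraries, among other settings. As a plain share of all counts, miR-29a-3p stood at 3.70, 3.69 and 3.47% in females and at 3.27, 3.14 and 3.38% in males, so that the groups did not overlap. How many of all tested miRNAs were without overlap on this scale was not counted. After TMM scaling the groups of miR-29a-3p overlapped, while those of 21.6% of all tested miRNAs did not. The TMM factors were 1.03 to 1.07 in females and 0.917 to 0.983 in males. With library totals alone, the log2 fold changes were 0.15 for miR-29a-3p, 0.13 for miR-29c-3p and 0.045 for miR-29b-3p. All tested miRNAs moved with them, from a median of -0.01 to 0.13. With upper-quartile factors that median was -0.10, and the guides stood at -0.083, -0.10 and -0.19. Under none of these scalings did a guide pass (lowest adjusted p = 0.203, edgeR, library totals alone).

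Among the opposite arms, miR-29b-2-5p had the largest estimate, a log2 fold change of 0.49 (SE 0.27, 95% interval -0.10 to 1.07, adjusted p = 0.364, edgeR). Mean levels (± SD, n = 3 each) were 6.59 ± 0.287 CPM for females and 4.54 ± 0.815 CPM for males. Non-overlapping groups of this direction were found for 10.5% of all tested miRNAs, and for 1 of the 6 tested members. The value rests on few reads, 86 counts in the 3 females and 129 in the 3 males. Counting error alone gives exact Poisson 95% intervals of 5.22 to 8.06 and 4.09 to 5.83 CPM on the summed counts, which overlap. Overlap of 2 such intervals does not show that counting error covers the difference, and the summed counts were not tested. Smaller estimates were found for miR-29a-5p, 0.26 (SE 0.31, adjusted p = 0.73, edgeR), and for miR-29c-5p, 0.02 (SE 0.23, adjusted p = 0.978, edgeR).

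Ratios of 2 members within a library depend on neither the library total nor the scaling, and 9 were compared between the sexes. Guide proportions overlapped between the sexes. Counts of miR-29c-3p were 33.1, 37.4 and 35.4% of those of miR-29a-3p in females and 38.6, 33.4 and 35.1% in males. Their log2 ratio differed by -0.02 between the sexes (exact two-sided permutation test, p = 0.8; adjusted p = 0.9 over 9 ratios). The ratio of miR-29b-3p to miR-29a-3p was 9.21, 11.0 and 11.3% in females and 13.3, 8.67 and 11.7% in males, again with overlap (exact permutation p = 0.7). Male replicates 1 and 2 were the extremes of that ratio, as they were for the level of miR-29b-3p. No ratio passed, and 3 animals against 3 cannot give a p below 0.1.

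Both ratios that hold miR-29b-2-5p were the 2 of the 9 without overlap, and they share its counts. Relative to miR-29b-3p, it stood at 0.194, 0.169 and 0.186% in females and at 0.10, 0.127 and 0.130% in males. The log2 ratio was 0.62 higher in females (exact permutation p = 0.1, the smallest possible; adjusted p = 0.45). Relative to miR-29c-5p, from the neighbouring hairpin of the same cluster, it stood at 20, 20.5 and 15.9% in females and 10.5, 14.2 and 15.1% in males, a log2 difference of 0.51 (exact permutation p = 0.1, adjusted p = 0.45). In the other cluster, the ratio of miR-29b-1-5p to miR-29a-5p ranged from 17.9 to 53.3% and overlapped (exact permutation p = 0.7), on 5 to 34 counts of miR-29b-1-5p.

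**Figure D3:**
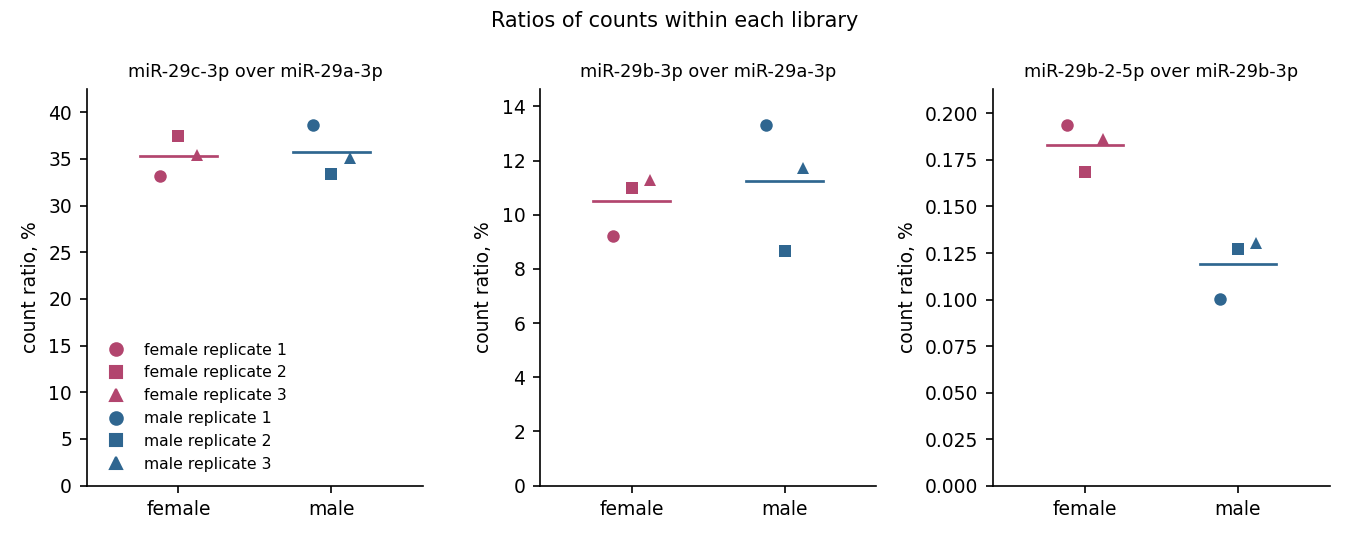
Count ratios within each library, in percent, for miR-29c-3p over miR-29a-3p, miR-29b-3p over miR-29a-3p and miR-29b-2-5p over miR-29b-3p; points are libraries, bars are means of 3, and each axis starts at 0. The guide ratios overlap between the sexes, while that of miR-29b-2-5p runs from 0.169 to 0.194% in females and from 0.10 to 0.130% in males.

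The 2 hairpins with arms of their own differed in how much of the opposite arm was counted. In Mir29a the 5p arm made up 0.0104 to 0.0216% of the counts of both arms, on 208 of 1367424 counts (exact Clopper-Pearson 95% interval 0.0132 to 0.0174%). In Mir29c it made up 0.233 to 0.372%, on 1401 of 485397 counts (0.274 to 0.304%). So although miR-29a-3p was the more abundant guide, miR-29c-5p was the more abundant opposite arm, at 4.18 to 10.1 times miR-29a-5p. The 5p to 3p ratio of Mir29c was 11.2 to 28.5 times that of Mir29a, higher in 6 of 6 libraries. These multiples were singled out after their values were seen, so they carry no test. The 2 miR-29b loci also differed, with 2 to 4.80 counts of miR-29b-2-5p for each count of miR-29b-1-5p. Relative to all miR-29b-3p, miR-29b-1-5p stood at 0.0351 to 0.0637%, lower than miR-29b-2-5p in each library.

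Other abundant hairpins give the scale for these shares. In 36 hairpins whose arms are listed as a single 5p and 3p pair and reach 1000 CPM together, the median minor arm took 0.348% of the counts. Mir29a had the second smallest minor arm of the 36, after miR-107, and Mir29c was 17th. The 3p arm was the major one in 18 of the 36. The intervals on counts cover counting error only.

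**Figure D4:**
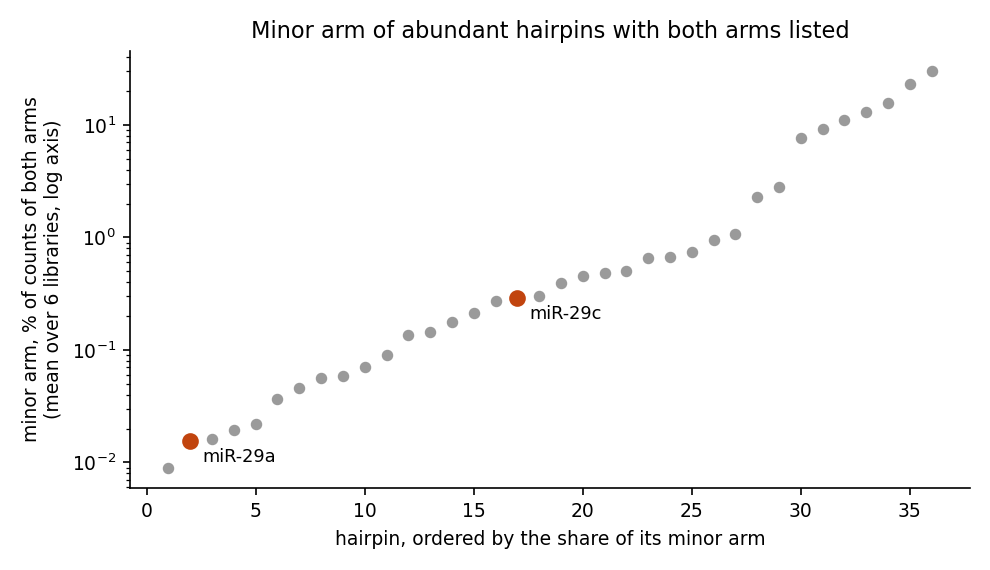
Share of the minor arm, in percent of the counts of both arms (mean over 6 libraries, log axis), for 36 hairpins at 1000 CPM or more, in ascending order. The miR-29a hairpin lies in second place and the miR-29c hairpin in place 17, near the median of 0.348%.

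Across the 6 animals, miR-29a-3p was among the steadiest of the tested miRNAs after TMM scaling. As a plain share of counts miR-29a-3p ran from 3.14 to 3.70%, and spread was not ranked on that scale. The SD of its log2 CPM was 0.054, the third lowest of 370, behind miR-192-5p and miR-126a-3p. Of the 50 tested miRNAs nearest to it in level, 2 had a lower SD, and their median was 0.13. For miR-29c-3p the SD was 0.095, with 10 of its 50 nearest lower. In contrast, miR-29b-3p had an SD of 0.22, and 36 of its 50 nearest were steadier. Abundant miRNAs vary less in these libraries, as the plot of spread against level shows, which is why each was set beside neighbours in level. For miR-29a-3p, at rank 7 to 9, most of the 50 neighbours were less abundant, so the match in level is loose. The arms with few counts, miR-29c-5p, miR-29b-2-5p and miR-29a-5p, had SDs of 0.26, 0.33 and 0.37, where the median of all tested miRNAs was 0.30.

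**Figure D5:**
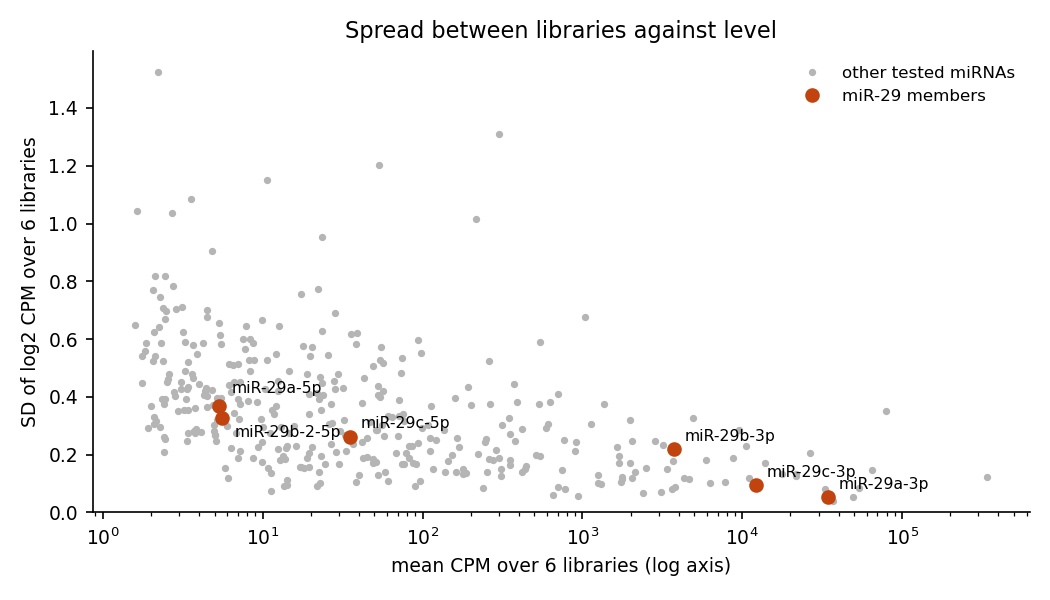
SD of log2 CPM over the 6 libraries against mean CPM (log axis) for the 370 tested miRNAs, with the 6 tested miR-29 members marked. Among the guides, miR-29a-3p lies at 0.054 at the lower edge of the points, miR-29c-3p at 0.095 and miR-29b-3p at 0.22.

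The miRNAs whose pattern over the 6 libraries lay closest to miR-29a-3p were miR-192-5p, miR-26b-5p, miR-532-5p, miR-148b-5p and miR-126a-3p. Their root mean square distance was 0.054 to 0.072 log2 units after each miRNA's mean was subtracted, where the median of the other 369 was 0.28. To miR-29c-3p the closest were miR-340-5p, miR-126a-5p, miR-362-3p, miR-29a-3p and miR-148b-5p, at 0.060 to 0.085. This distance favours miRNAs that vary little, and all values share the library totals. Within the family, miR-29c-3p was 8th closest to miR-29a-3p and miR-29b-3p was 126th. The opposite arm of the same hairpin, miR-29a-5p, was 211th.

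Other miRNAs tied to liver fibrosis show what surrounds the family. Both lists were chosen with earlier results of these data known, so their counts are a description and not a test. Of 17 miRNAs linked to stellate cell activation or fibrosis, 1 was higher and 1 lower in females, where 3.24% and 3.51% of all tested miRNAs were, with a median log2 fold change of -0.0033. The lower one was miR-21a-5p, which is induced in injured and fibrotic tissue, with mean ± SD (n = 3 each) of 63232 ± 6563 CPM for females and 95729 ± 8582 CPM for males (adjusted p = 0.00169, edgeR). The higher one was the p53-induced miR-34a-5p, with 332 ± 18.1 and 96.7 ± 25.5 CPM (adjusted p = 0.00016, edgeR). Also in this list, miR-125b-5p, miR-27b-3p, miR-199a-3p and miR-221-3p had log2 fold changes of -0.42, 0.16, -0.38 and 0.03 without passing. Of 21 tested miRNAs linked, like miR-29, to restraint of fibrosis, 0 passed in either direction, against 6.76% of all tested miRNAs, with a median of 0.11. The most abundant of these were miR-122-5p at -0.21, miR-16-5p at 0.08, miR-194-5p at 0.17 and miR-30a-5p at 0.18.

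Marker miRNAs of cell types are given as levels only. In whole liver, fewer cells of a type and less RNA per cell cannot be told apart. The marker lists, too, were chosen with earlier results known. Of all tested miRNAs 3.24% were higher and 3.51% lower in females, and 21.6% of single miRNAs had groups without overlap. Summed over 7 stromal and stellate markers, the level was 10771 to 13258 CPM in females and 13748 to 14404 in males, with 6 of 7 log2 fold changes negative and 0 past the threshold. Over 6 leukocyte markers it was 6559 to 6745 CPM in females and 4895 to 6449 in males, with 6 of 6 positive and 1 higher, the myeloid miR-223-3p (log2 fold change 0.62, adjusted p = 0.0467, edgeR). That call was lost with upper-quartile factors, in limma-voom, and without female replicate 2, female replicate 3 or male replicate 3 (adjusted p = 0.0556 to 0.273). The 6 hepatocyte markers summed to 395785 to 398896 CPM in females and 421092 to 466031 in males. Most of that sum is miR-122-5p, at a mean of 315746 CPM in females and 363970 in males. Of the 6 log2 fold changes 4 were positive, with a median of 0.10, and 1 marker was higher in females, miR-802-5p. The summed levels of endothelial, erythroid, biliary and muscle markers overlapped between the sexes, and no marker list had a member at 0 in all libraries. Of their log2 fold changes, 5 of 5 biliary and epithelial ones were negative, and 4 of 4 erythroid and 2 of 2 tested muscle ones positive. The endothelial markers had 1 of each sign, and 0 markers of these lists passed. The part of these marker differences in the values of miR-29b-2-5p was not tested.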

How the data were processed

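Mature miRNAs were counted in liver libraries from a Qiagen kit for miRNA, according to the labels' protocols. The authors deposited 1 table of estimated counts per mature miRNA, not normalised; the submitters' processing notes name Partek, Bowtie and mm10 but no settings. The collapsing of molecular identifiers is not described. Whole numbers (tolerance of 0) made up 98.9% of the values, and the others were rounded; 138 of 2045 rows were exact repeats and were left out. The stop column was the base after the end for all 7 members, so positions printed are those of RefSeq.

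Samples were grouped by labelled sex, with replicates numbered in accession order. Whether each library is a separate animal rests on the labels. Sex was tested with edgeR 4.0.16 (R 4.3.3; quasi-likelihood, robust, TMM; filterByExpr with a minimum count of 10 and total of 15), adjusted over 370 miRNAs. Standard errors are the fold change over the root of F. No library pair agreed within sampling noise (chi-square per degree of freedom at least 30.5). Within-library ratios had 0.5 added to each count and were tested by exact permutation (scipy 1.17.1). One count stood for 0.0608 to 0.304 CPM. DESeq2 1.42.0 and limma 3.58.1 served as alternatives. The edgeR step was tested on simulated data.

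Named miRNAs were all members, list members past the threshold, up to 4 of the most abundant of the fibrosis lists, and the 5 closest patterns to miR-29a-3p and miR-29c-3p. Members and lists were chosen with earlier results of these data known.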

Additional observations from a re-analysis of the deposited data

How the results depend on the processing

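The count of 0 miR-29 members past the threshold was the same in all 15 alternative fits. Without a TMM factor 2 members, miR-29a-3p and miR-29b-2-5p, had an unadjusted p under 0.05, as did 22.2% of all tested miRNAs, and without male replicate 2 so had miR-29b-3p, as did 19.5% of all; adjusted p was at least 0.203 in each fit. The estimates of the guides and of the opposite arm miR-29c-5p lie near 0, and their sign changed with the setting. With upper-quartile factors, miR-29a-3p was at -0.083 and miR-29c-5p at -0.074. With the filter of 50 counts they were at -0.022 and -0.013, and with repeated rows in the totals at -0.012 and -0.0066. With library totals alone, miR-29b-3p was at 0.045 and miR-29c-3p at 0.13. Leaving out 1 library gave -0.032 to 0.055 for miR-29a-3p, -0.087 to 0.037 for miR-29c-3p, -0.13 to 0.14 for miR-29c-5p, and 9 to 32 miRNAs called over the whole table. The estimates of miR-29b-2-5p and miR-29a-5p stayed positive in all 15 fits that tested them, at 0.40 to 0.67 and 0.033 to 0.43. The filter of 50 counts left both out. Female levels of miR-29b-2-5p all lay above the male ones, so omitting 1 library had little room to change the sign of its estimate.

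Between the sexes, the log2 ratio of miR-29b-1-5p over miR-29b-3p moved from -0.033 to 0.067 with 2 added to each count, and ran from -0.19 to 0.20 when a library was left out. Such omissions gave -0.061 to 0.043 for miR-29c-3p over miR-29a-3p, -0.26 to 0.052 for miR-29b-3p over miR-29a-3p, -0.20 to 0.0097 for miR-29b-3p over miR-29c-3p and -0.14 to 0.18 for miR-29c-5p over miR-29c-3p. For miR-29b-2-5p they gave 0.50 to 0.69 over miR-29b-3p and 0.35 to 0.63 over miR-29c-5p. Every female ratio of miR-29b-2-5p lay above every male one, so omitting 1 library could not change these signs. With 5 libraries the steps in the order of levels had mean log2 ratios of 1.48 to 1.52 for miR-29a-3p over miR-29c-3p, 1.68 to 1.76 for miR-29c-3p over miR-29b-3p, 6.69 to 6.79 for miR-29b-3p over miR-29c-5p, 2.54 to 2.73 for miR-29c-5p over miR-29b-2-5p and 1.22 to 1.52 for miR-29a-5p over miR-29b-1-5p. The remaining step, miR-29b-2-5p over miR-29a-5p, ran from -0.052 to 0.16.

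The summed guide share was 4.20% in females and 3.85% in males with repeated rows in the total, and 7.90% and 7.33% without miR-122-5p, by construction of the total. For every other change the cause was not tested. No paired analysis was possible because the replicate numbers were given in accession order and pair no animals. Depth limits the 4 opposite arms, where a library held 5 to 564 counts.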
